A study of Mus musculus with 42 samples.

Results

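The Fos, Jun and Atf3 genes were followed across 3 groups of mouse muscle precursor cells. They are 8 of the 24466 genes in the read count files, taken by their symbols: Fos, Fosb, Fosl1 and Fosl2 of the Fos family, Jun, Junb and Jund of the Jun family, and Atf3. The genes were chosen by their measured RNA levels in the same 3 groups, so those levels are given as a description without a test, and all 8 passed the filter on low counts.

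The study examined how the transcription factor Pax7 acts on chromatin in muscle precursors. RNA was sequenced from iPax7 cells, which are precursors derived from mouse embryonic stem cells as a PDGFRα+Flk-1- fraction and carry a Pax7 transgene switched on by doxycycline (Dox). The +Dox group had 3 libraries of cells kept with Dox, labelled as 0.75 µg/ml, and the -Dox group had 2 libraries of the same cells 3 days after Dox was removed. Both were grown in serum with basic FGF. The third group had 3 libraries of satellite cells, the resident stem cells of muscle, sorted from muscle tissue of Pax7-ZsGreen reporter mice and labelled as in vivo, with age, sex and number of animals not given in the sources used here. Each group is 1 sample in the labels with several replicate files, and the sources used here do not state whether these came from separate cultures or animals, so the spread between them may be technical. The counts assigned to genes ranged from 39010958 to 54674619 per library. The chromatin assays described later also covered iPax7 cells 12 h and 24 h after Dox removal and myotubes made from iPax7 cells. They further covered the mouse myoblast line C2C12, as myoblasts and as myotubes. Other C2C12 myoblasts stably expressed Flag-tagged Pax7 (Pax7-flag) or the Flag tag alone (flag control). Myotubes were formed in medium with horse serum.

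Pax7 itself followed the labels. Its mean was 12833 normalized counts in +Dox cells (SD 1261, n = 3) and 245 after Dox withdrawal (SD 34.6, n = 2), and satellite cells had 5962 (SD 2331, n = 3). A normalized count is a read count scaled for library size by the TMM method. All 9 measured markers of muscle differentiation were called higher in -Dox than in +Dox cells. The satellite cell libraries also held RNA of genes used as markers of other cell types. Whether it came from other cells or from the sorted cells themselves was not tested. Summed over 6 endothelial markers, they had 14439 to 21831 normalized counts, against 0.919 to 168 in the iPax7 libraries, where Cdh5 was at 0 in both groups, Kdr at 0 in +Dox cells, and Tie1 and Emcn at 0 in -Dox cells. Over 6 blood cell markers the sums were 2725 to 10388 against 158 to 464, with Ptprc, Itgam and Cd3e at 0 in both iPax7 groups and Csf1r at 0 in +Dox cells. Over 6 fibroadipogenic markers they were 59138 to 109624 against 4141 to 12596, with Lum at 0 in +Dox and Pdgfra at 0 in -Dox cells. Single markers could depart from these sums. The fibroadipogenic marker Ly6a was not called in satellite cells, with log2 fold changes of -0.95 ± 0.643 against +Dox and 0.89 ± 0.732 against -Dox cells (SE). The blood marker Cd68 was not called against +Dox cells, at 1.56 ± 0.661 (SE). Itgam, also a blood marker, did not pass the filter on low counts and was not tested in any comparison. The 10 satellite cell markers summed to 719920 to 1098164 in satellite cells, 187338 to 266079 in +Dox cells and 52625 to 55841 in -Dox cells, where Chrdl2 was at 0. In addition, 23.6% to 30.7% of alignments in satellite cells were not unique, against 7.11% to 7.60% in iPax7 cells. The part of any other cell types and of the alignment difference in the results below was not tested. In bulk RNA a different number of cells of a type and a different amount of RNA per cell cannot be told apart. Satellite cells were sorted from tissue, and iPax7 cells were derived from embryonic stem cells and taken from culture. Differences due to isolation, culture or origin therefore cannot be told apart from other differences between these groups.

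AP-1 is a dimer of a Fos and a Jun protein, or of a pair of Jun proteins, joined through a leucine zipper. Its binding site was searched here as TGANTCA, where N is any base, and matches were not split by this base. Atf3 belongs to the same bZIP class and pairs with Jun proteins. Fos, Fosb, Jun, Junb and Atf3 are known as immediate early genes, whose RNA rises soon after growth factors, MAP kinase signals or stress reach a cell and is short-lived. Jund is usually expressed more steadily, and Fosl1 and Fosl2 are often induced later than Fos.

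The stretches upstream of Fos, Fosb, Jun and Fosl1 are shown because they hold, or lack, the elements through which such genes are known to be switched on. Within 500 bases before each start site, 4 motifs were searched on both strands: the CArG box bound by serum response factor, TGANTCA, the CRE core TGACGT and its longer relative TGACNTCA. TGACNTCA and TGACGT overlap where the letter N is G. The sequences are on the strand of the gene, 5′ to 3′, from genome build NCBIM37 (mm9), with motif matches in capitals. Fos is at chr12:86814531-86814830 on the plus strand, Fosb at chr7:19895418-19895717 on the minus strand, Jun at chr4:94718918-94719217 on the minus strand, and Fosl1 at chr19:5447403-5447702 on the plus strand.
Fos: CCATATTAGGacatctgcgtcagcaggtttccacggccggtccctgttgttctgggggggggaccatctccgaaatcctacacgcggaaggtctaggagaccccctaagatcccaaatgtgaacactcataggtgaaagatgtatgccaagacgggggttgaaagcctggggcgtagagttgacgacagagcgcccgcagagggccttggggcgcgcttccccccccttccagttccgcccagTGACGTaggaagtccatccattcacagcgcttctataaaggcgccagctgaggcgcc
Fosb: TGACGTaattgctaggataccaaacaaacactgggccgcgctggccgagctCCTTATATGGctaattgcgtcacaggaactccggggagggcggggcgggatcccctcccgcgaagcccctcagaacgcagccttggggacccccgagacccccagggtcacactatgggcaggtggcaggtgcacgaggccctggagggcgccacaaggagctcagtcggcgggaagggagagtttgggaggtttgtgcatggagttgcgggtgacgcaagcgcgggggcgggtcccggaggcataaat
Jun: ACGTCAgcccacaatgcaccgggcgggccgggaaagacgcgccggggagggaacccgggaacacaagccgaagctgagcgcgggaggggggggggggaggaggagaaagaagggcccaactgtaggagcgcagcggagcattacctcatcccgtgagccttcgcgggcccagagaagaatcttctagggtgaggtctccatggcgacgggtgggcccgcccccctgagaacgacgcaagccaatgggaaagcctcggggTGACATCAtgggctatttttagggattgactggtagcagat
Fosl1: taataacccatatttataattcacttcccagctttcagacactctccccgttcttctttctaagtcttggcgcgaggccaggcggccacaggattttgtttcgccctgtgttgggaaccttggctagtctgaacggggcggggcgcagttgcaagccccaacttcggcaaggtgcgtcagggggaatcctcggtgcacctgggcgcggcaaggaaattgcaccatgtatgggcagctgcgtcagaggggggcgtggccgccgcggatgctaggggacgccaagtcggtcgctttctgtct
Fos had a CArG box, CCATATTAGG, at 309 to 300 bases before its start site and TGACGT at 66 to 61 bases before it. A further match upstream of the stretch shown, TGAATCA, lay at 462 to 456 bases. Fosb had the CArG box CCTTATATGG at 272 to 263 bases and TGACGT at 323 to 318 bases. Jun had TGACATCA, a match to TGACNTCA, at 45 to 38 bases and the reverse strand of TGACGT at 304 to 299 bases. In Fosl1, Fosl2, Junb, Jund and Atf3 no match to these letters was found in the window. A CArG box was present in 2 of the 8 genes and in 2.71% of 22359 annotated protein-coding promoters, TGACGT in 3 of the 8 and in 10.2%, TGANTCA in 1 of the 8 and in 12.0%, and TGACNTCA in 1 of the 8 and in 11.1%. A match is a description of the sequence and was not tested for binding.

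All 8 genes had more RNA in satellite cells than in either group of cultured iPax7 cells, and in each the lowest satellite cell library was above the highest iPax7 library. Together they took 0.494% to 1.22% of all gene counts in satellite cells, against 0.00346% to 0.00404% in +Dox cells and 0.00852% in each -Dox library. Fos alone made up 61.0% to 67.9% of the normalized counts of the 8 genes in satellite cells, 17.6% to 35.8% in +Dox cells and 7.31% to 11.5% in -Dox cells. The plot of normalized counts by replicate shows all libraries.

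**Figure D1:**
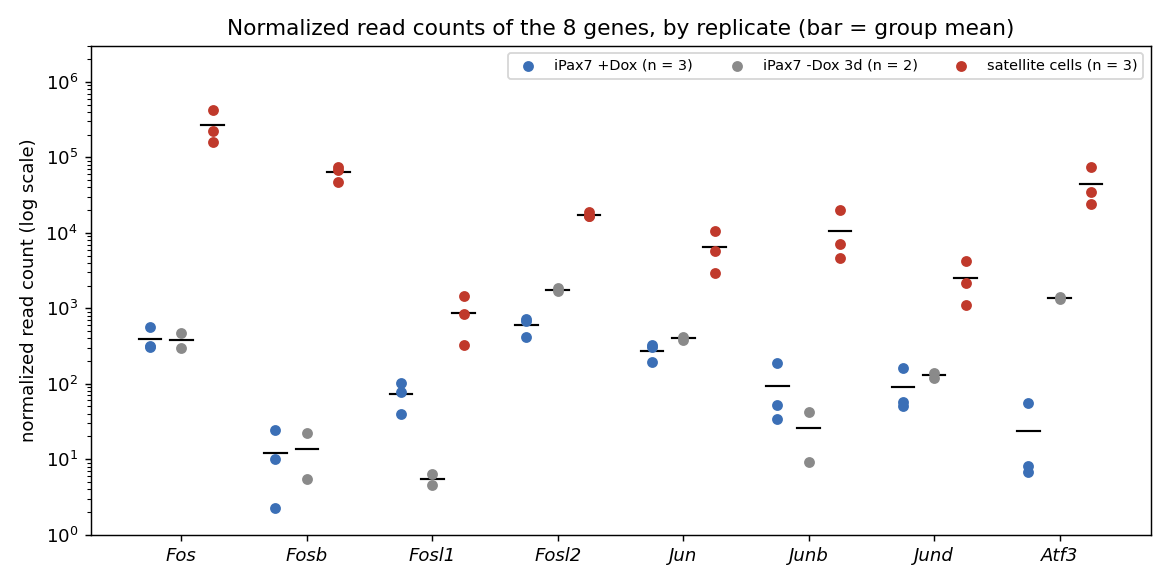
Normalized read counts (log scale) of the 8 genes in each replicate library of iPax7 +Dox cells (blue, n = 3), iPax7 -Dox cells after 3 days (grey, n = 2) and satellite cells (red, n = 3), with black bars for group means. In each gene the satellite cell points lie above the iPax7 points, and Fosl1 and Atf3 differ between +Dox and -Dox cells in opposite directions.

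In the Fos family, Fos had the largest counts. It stood at 425653, 158623 and 223702 normalized counts in the 3 satellite cell libraries, at 321, 558 and 311 in +Dox cells and at 302 and 464 in -Dox cells. Satellite cells did not overlap with either iPax7 group, whereas the iPax7 groups overlapped each other. The means were 269326 ± 139239 (SD, n = 3), 397 ± 140 (SD, n = 3) and 383 ± 115 (SD, n = 2). The log2 fold change of satellite cells against +Dox cells was 9.41 ± 0.564 (SE), and that of -Dox against +Dox cells was -0.05 ± 0.444 (SE).

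Fosb, a close relative of Fos, was near the limit of detection in culture. Its 3 +Dox libraries had 2.25, 24.4 and 10.0 normalized counts and its 2 -Dox libraries had 22.1 and 5.54, from 3 to 33 reads each. The satellite cell libraries had 75326, 47695 and 69006. Its log2 fold change against +Dox cells, 12.33 ± 0.884 (SE), was the largest of the 8 genes, and it rests on the small counts in culture. In satellite cells its coefficient of variation was 22.6%, against 51.7% for Fos.

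Fosl1, which encodes Fra-1 and lacks the activation domain of Fos, was not higher in culture: it too was highest in satellite cells. It had 78.1, 101 and 40.1 normalized counts in +Dox cells, 4.60 and 6.46 in -Dox cells, and 323, 1436 and 828 in satellite cells. No library of a group overlapped with those of another group. The -Dox libraries held 5 and 7 reads. The log2 fold change was -3.70 ± 0.859 (SE) for -Dox against +Dox cells, 3.56 ± 0.686 for satellite cells against +Dox cells and 7.25 ± 1.00 for satellite cells against -Dox cells. Of the 8 genes it had the smallest difference between satellite cells and +Dox cells. The gene span of Fosl1, introns included, shares 2783 bases with that of Ccdc85b on the other strand. Fosl1 has 1707 bases of exon. Whether counting used strand is not given in the sources used here. Ccdc85b averaged 84.6 normalized counts with Dox (SD 28.9, n = 3), 10.1 without Dox (SD 9.09, n = 2) and 1143 in satellite cells (SD 718, n = 3), the same order as Fosl1. Whether reads of 1 of these 2 genes were counted for the other was not tested.

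Fosl2, which encodes Fra-2, had the smallest spread in satellite cells, at 16557, 16695 and 18915 normalized counts. In culture it had 672, 415 and 726 with Dox and 1837 and 1686 without Dox. Thus the 3 groups were separate, with the highest level in satellite cells and the lowest in +Dox cells. The ratio of the means was 28.8 for satellite cells against +Dox cells, 9.87 for satellite cells against -Dox cells and 2.92 for -Dox against +Dox cells. The corresponding log2 fold changes were 4.85 ± 0.301, 3.30 ± 0.330 and 1.54 ± 0.283 (SE).

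In the Jun family, whose proteins are the obligate partners of Fos proteins, the satellite cell excess was smaller than for Fos. Jun had 10652, 2925 and 5701 normalized counts in satellite cells, 192, 304 and 322 in +Dox cells and 420 and 384 in -Dox cells. The -Dox libraries were both above the 3 +Dox libraries, by a log2 fold change of 0.56 ± 0.485 (SE), little more than its standard error. Against +Dox cells the satellite cell log2 fold change was 4.56 ± 0.504 (SE). Jun overlaps 689 bases of the noncoding transcript BC042782 on the other strand, which was not in the count files.

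Junb, which competes with Jun for partners and often acts more weakly, had 20101, 7032 and 4628 normalized counts in satellite cells. It was uneven in culture, at 34.6, 51.8 and 191 with Dox and 9.19 and 42.5 without Dox, and the iPax7 groups overlapped. The log2 fold change was 6.84 ± 0.964 (SE) for satellite cells against +Dox cells, the largest of the Jun family, and -1.83 ± 0.957 (SE) for -Dox against +Dox cells. The latter ranged from -3.31 without -Dox replicate 2 to -0.74 without +Dox replicate 3.

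Jund, usually the steady member, was also higher in satellite cells, at 4278, 1106 and 2191 normalized counts against 57.1, 50.4 and 163 with Dox and 139 and 121 without Dox. The iPax7 groups overlapped, and 1 +Dox library, replicate 3, was above both -Dox libraries. The log2 fold change was 4.81 ± 0.677 (SE) for satellite cells against +Dox cells and 0.53 ± 0.649 (SE) for -Dox against +Dox cells. The latter was 0.24 without +Dox replicate 2, 0.29 without +Dox replicate 1 and 1.27 without +Dox replicate 3. Jund overlaps 543 bases of Gm11175 on the other strand, which was not in the count files.

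Atf3, a stress-responsive repressor in many cells, had the largest difference between the 2 culture conditions. It was at 6.76, 54.8 and 8.20 normalized counts in +Dox cells and at 1401 and 1312 in -Dox cells, and reached 74076, 24437 and 34939 in satellite cells. No library of one group overlapped with those of another. The +Dox libraries held 9, 74 and 9 reads. The log2 fold change of -Dox against +Dox cells was 5.84 ± 0.840 (SE), and 7.50 without +Dox replicate 2, the library with 74 reads. That of satellite cells was 10.88 ± 0.994 (SE) against +Dox cells and 5.04 ± 0.918 (SE) against -Dox cells.

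**Figure D2:**
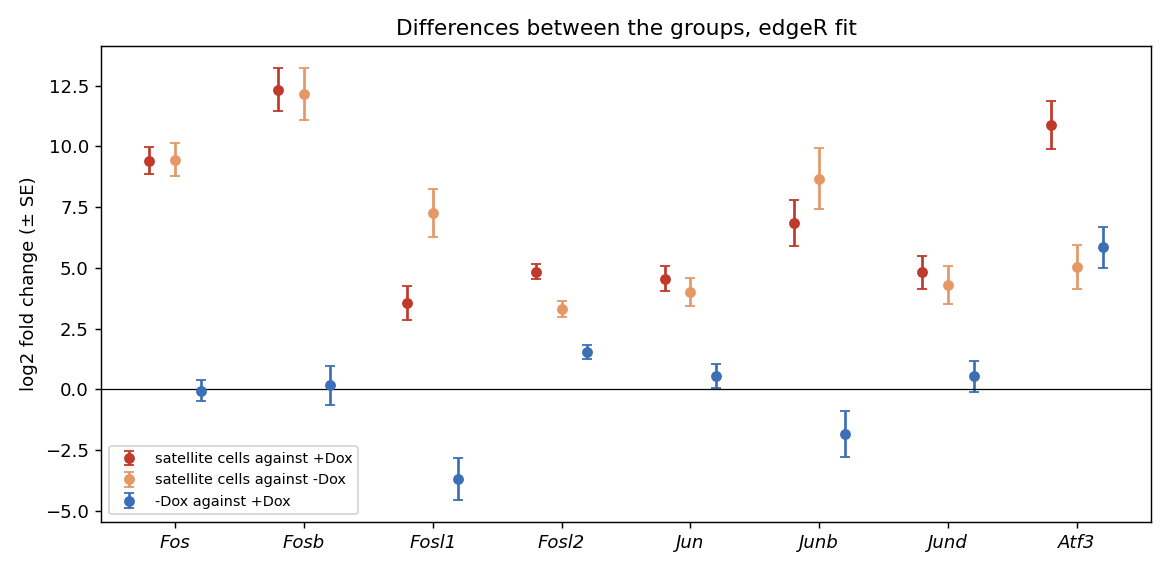
Log2 fold changes (y axis, with standard errors) of the 8 genes in the 3 comparisons, from the edgeR fit over all genes. The comparisons with satellite cells lie above 0 for each gene, from 3.30 to 12.33, and those of -Dox against +Dox cells range from -3.70 for Fosl1 to 5.84 for Atf3.

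As a call, a gene had to have an adjusted p under 0.05 and at least a 2-fold difference in the edgeR fit. All 8 genes were past this rule as higher in satellite cells than in +Dox cells, where 23.9% of the 14836 genes tested were called higher, and 30.2% had every satellite cell library above every +Dox library. All 8 were also past it as higher in satellite cells than in -Dox cells, where 20.4% of genes were called higher and 33.7% did not overlap in that direction. Between -Dox and +Dox cells, Atf3 and Fosl2 were past it as higher without Dox (4.63% of genes) and Fosl1 as lower (3.01% of genes). There, Jun, Fosl2 and Atf3 were separate with -Dox above (22.7% of genes), and Fosl1 with -Dox below (22.7% of genes). These same levels chose the genes, so nothing was read from the counts. The median log2 fold change over all genes tested was 0.17, 0.23 and -0.0049 in the 3 comparisons, and over the 8 genes it was 5.85, 6.14 and 0.35. The comparisons share groups and are given side by side.

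The satellite cell libraries differed among themselves. Replicate 1 was the highest for 6 of the 8 genes, by 1.58 times for Fosb to 4.34 times for Junb over the lowest replicate, and the lowest for Fosl1 and Fosl2. Replicate 1 also had the highest marker sums for blood cells (10388 against 2725 and 3703 normalized counts), fibroadipogenic cells (109624 against 89035 and 59138), satellite cells (1098164 against 719920 and 982638) and muscle differentiation (8196 against 5147 and 6237). Its endothelial sum was the lowest, at 14439 against 21831 and 16251. The part of these differences was not tested. Without replicate 1, the log2 fold change against +Dox cells was 8.91 for Fos, 12.2 for Fosb, 3.96 for Fosl1, 4.88 for Fosl2, 3.99 for Jun, 5.99 for Junb, 4.20 for Jund and 10.3 for Atf3.

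Levels of different genes were compared as normalized counts per kilobase of exon. In satellite cells the order was Fos at 114509 ± 59200, Atf3 at 22421 ± 13185, Fosb at 17065 ± 3860, Junb at 5859 ± 4608, Fosl2 at 2970 ± 226, Jun at 2015 ± 1227, Jund at 877 ± 560 and Fosl1 at 505 ± 326 (SD, n = 3). Fos was above the range of Atf3 and Fosb was above that of Junb, and other neighbours in this order overlapped. In +Dox cells Fos led at 169 ± 59.5, above the range of Fosl2 at 103 ± 28.3 and Jun at 85.5 ± 22.0, and all later neighbours overlapped down to Fosb at 3.26 ± 3.00 (SD, n = 3). In -Dox cells Atf3 led at 684 ± 32.0, then Fosl2 at 301 ± 18.2, Fos at 163 ± 48.7 and Jun at 126 ± 7.98 (SD, n = 2), of which Fos and Jun overlapped. Fosl1 was last at 3.24 ± 0.773 per kilobase. Thus the leading gene of the family differed by condition: Fos in +Dox and satellite cells, and Atf3 in -Dox cells.

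The search for genes with a similar pattern covered 12324 genes whose mean reached 100 normalized counts in 1 group or more. Those most like Fos over the 8 libraries on the log2 scale were Lrg1 (Pearson r = 0.999), Casp4, Myo1f, Slco4a1 and Prdm16 (r = 0.998 each). Casp4, Myo1f, Slco4a1 and Prdm16 had no count in any iPax7 library. Those most like Fosl1 were Baiap2 (r = 0.993), Itprip (r = 0.992), Sap130 (r = 0.991) and Zc3hav1 (r = 0.990). Baiap2, for example, averaged 3036 normalized counts with Dox (SD 298, n = 3), 1286 without Dox (SD 259, n = 2) and 6344 in satellite cells (SD 1070, n = 3). The libraries fall into 3 groups, so these values describe mainly the group differences.

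The other genes of the pathway were tested in the same fit, by 6 lists of genes that hold none of the 8. These lists were chosen with earlier results of these data known. Their counts and p-values, here and in the next paragraphs, are therefore a description and not independent evidence. Of 84 such genes tested, 50 were called higher (59.5%, against 23.9% of all genes) and 8 lower (9.52%, against 18.2%) in satellite cells than in +Dox cells. Against -Dox cells 44 were higher (52.4%, against 20.4%) and 4 lower (4.76%, against 17.2%). In -Dox against +Dox cells 7 were higher (8.33%, against 4.63%) and 4 lower (4.76%, against 3.01%). All 15 other immediate early genes were higher in satellite cells than in +Dox cells, with a median log2 fold change of 4.94 against 0.17 over all genes, and all 15 were higher than in -Dox cells, with a median of 6.80. Zfp36, which promotes decay of short-lived RNAs, rose from 860 ± 228 to 304999 ± 122269 normalized counts (SD, n = 3 each, log2 fold change 8.47 ± 0.43, edgeR adjusted p = 3.95e-06). The orphan nuclear receptor Nr4a1 rose from 125 ± 35.1 to 53722 ± 31253 (8.75 ± 0.63, edgeR adjusted p = 1.5e-05), and Klf2 from 1.84 ± 1.11 to 635 ± 347 (8.33 ± 0.93, edgeR adjusted p = 0.000155). Nr4a3 had 2 reads in all +Dox libraries and 5669 in satellite cells.

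Of 25 bZIP genes that can pair with or compete with AP-1, 16 were higher in satellite cells than in +Dox cells (64.0%, against 23.9% of all genes), with none lower and a median of 2.57. The small Maf factor Maff rose from 43.2 ± 29.5 to 5059 ± 1596 normalized counts (SD, n = 3 each, log2 fold change 6.87 ± 0.65, edgeR adjusted p = 6.46e-05). Cebpd rose from 8.36 ± 2.24 to 1587 ± 793 (7.55 ± 0.69, edgeR adjusted p = 5.45e-05). Against -Dox cells 12 were higher and none lower. Between -Dox and +Dox cells, Atf4, the main factor of the integrated stress response and a known activator of Atf3, rose from 4293 ± 940 (SD, n = 3) to 9739 ± 265 (SD, n = 2; log2 fold change 1.18 ± 0.26, edgeR adjusted p = 0.0252), a call lost on leaving out +Dox replicate 1 or 2 or either -Dox replicate.

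MAP kinases carry signals to AP-1. Of 15 kinases, 5 were higher (33.3%) and 2 lower (13.3%) in satellite cells than in +Dox cells, shares not far from the 23.9% and 18.2% over all genes, with a median log2 fold change of 0.50. Map2k3, a kinase of the p38 branch, rose from 8258 ± 631 to 45064 ± 16828 normalized counts (SD, n = 3 each, log2 fold change 2.45 ± 0.33, edgeR adjusted p = 0.000371). Map2k7, a kinase of the JNK branch that acts on Jun, rose from 311 ± 72.5 to 1854 ± 285 (2.57 ± 0.34, edgeR adjusted p = 0.00037). Of 11 dual-specificity phosphatases, which switch MAP kinases off, 5 were higher (45.5%, against 23.9% of all genes) and 4 lower (36.4%, against 18.2%) than in +Dox cells. Dusp1 rose from 219 ± 97.5 to 15380 ± 2752 (6.14 ± 0.4, edgeR adjusted p = 1.06e-05) and Dusp8 from 33.5 ± 34.6 to 18997 ± 6461 (9.14 ± 0.96, edgeR adjusted p = 0.000113), whereas Dusp9 fell from 301 ± 52.8 to 7.05 ± 9.98 (-5.39 ± 1.3, edgeR adjusted p = 0.00798). The other lower phosphatases were Dusp4, Dusp6 and Dusp7, and the lower kinases were Mapk9 and Mapk11, named here after their values were seen. Dusp7 was called in 5 of 14 alternative fits. Among the higher genes, Dusp5, also named after its values were seen, was called in 7 of 14. Mapk10, a higher kinase with 0 reads in +Dox cells, was called in 12 of 14. Mapk9 lost its call without +Dox replicate 1, and Dusp4 without +Dox replicate 1 or 2 or satellite cell replicate 2. Dusp8 was also higher in -Dox than in +Dox cells, at 835 ± 11.1 (SD, n = 2; log2 fold change 4.63 ± 0.83, edgeR adjusted p = 0.00888).

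Among 6 genes of the serum response factor complex, which acts on the CArG box shown above for Fos and Fosb, 2 were higher in satellite cells than in +Dox cells (33.3%, near the 23.9% of all genes) and none lower. Srf rose from 360 ± 35.5 to 1899 ± 160 normalized counts (SD, n = 3 each, log2 fold change 2.40 ± 0.31, edgeR adjusted p = 0.000326) and its partner Elk4 from 330 ± 55.0 to 4649 ± 2000 (3.82 ± 0.41, edgeR adjusted p = 0.000118). Against -Dox cells the same 2 were higher, and Mkl2, a coactivator of serum response factor, was lower, at 2089 ± 424 (SD, n = 3) against 5980 ± 314 (SD, n = 2; log2 fold change -1.52 ± 0.27, edgeR adjusted p = 0.00233). Of 12 tested genes known as AP-1 targets, 7 were higher (58.3%, against 23.9% of all genes) and 2 lower (16.7%, against 18.2%) than in +Dox cells, with a median of 2.88. Mmp3, a matrix protease, had no count in +Dox cells and was at least 388-fold higher in satellite cells, taking 3 counts over the group as the limit. The chemokine Ccl2 rose from 65.7 ± 18.9 to 10374 ± 2979 (7.30 ± 0.39, edgeR adjusted p = 4.89e-06) and Il6 from 148 ± 41.7 to 5607 ± 2025 (5.24 ± 0.52, edgeR adjusted p = 7.69e-05). The lower targets, named after their values were seen, were Timp1 (-2.72 ± 0.310, edgeR adjusted p = 0.000167) and the cell cycle gene Ccnd1 (-2.95 ± 0.234, edgeR adjusted p = 2.64e-05). Ccl2 and Il6 are also made by blood and stromal cells, whose markers were present. Ccl2 was also higher in -Dox than in +Dox cells, at 1049 ± 146 (SD, n = 2; log2 fold change 4.00 ± 0.35, edgeR adjusted p = 0.000194). The protease receptor Plaur was lower there, falling from 19848 ± 3194 (SD, n = 3) to 3583 ± 185 (SD, n = 2; log2 fold change -2.47 ± 0.27, edgeR adjusted p = 0.00062).

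Between -Dox and +Dox cells, 4 list genes were called in each of 14 alternative fits: Dusp8, Ccl2, Plaur and Nr4a2, another orphan nuclear receptor, which fell from 80.4 ± 25.9 normalized counts (SD, n = 3) to 1.38 ± 0.647 (SD, n = 2, from 3 reads in all; edgeR adjusted p = 0.00123). Dusp1, Klf2, Mkl2 and Atf4 were called higher and Map2k3 and Nr4a1 lower, and each lost its call on leaving out 1 or more of the +Dox and -Dox libraries. Egr1, a standard immediate early marker that like Fos depends on serum response factor, is outside the rule for named genes and was chosen after its values were seen. It had a log2 fold change of -1.05 ± 0.329 (SE, edgeR adjusted p = 0.0918) between these groups and 6.61 ± 0.362 (SE, edgeR adjusted p = 5.42e-06) between satellite cells and +Dox cells.

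The chromatin files were made by other assays than the RNA levels that chose the genes, and each condition has 1 merged file, so they are described without a test. ATAC-seq, which marks open chromatin with a transposase, gave a peak within 1000 bases of the start site of all 8 genes in satellite cells, where 58.6% of 22219 protein-coding genes had one, and likewise in +Dox cells (63.2% of genes) and -Dox cells after 3 days (65.5% of genes). The start sites were therefore open in cultured cells in which Fosb had 2.25 to 24.4 normalized counts. The fold enrichment of the strongest peak was 37.4 for Fos in +Dox cells, 30.2 in -Dox cells after 3 days and 21.7 in satellite cells, and the median over genes with a peak was 22.2, 21.4 and 13.9. Since scale differs between files, each value was ranked among all genes with a peak in its file. Fos was at percentile 70.8, 63.5 and 71.6. Jun was at percentile 98.4, 96.6 and 97.6, and between 96.5 and 99.0 in all 10 conditions. Fosl1 was at 23.3, 24.3 and 16.2, and had no peak in myotubes of either line or in 1 of 3 files of C2C12, a mouse myoblast line, grown as myoblasts. That file had the fewest summits of all, 42700, and the other two, the flag control and the Pax7-flag cells, had a Fosl1 peak with a fold enrichment of 9.60 and 10.5. Atf3 was at 91.8, 89.0 and 48.3, and Jund at 97.4, 93.7 and 64.8, so both ranked lower in satellite cells, the group with the most RNA.

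**Figure D3:**
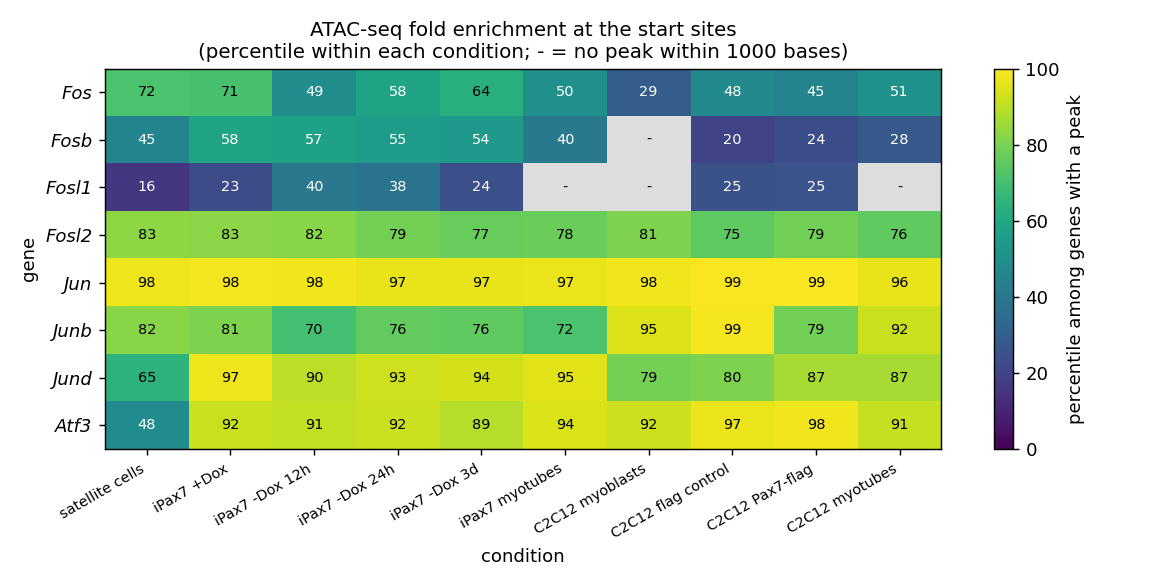
Percentile of the ATAC-seq fold enrichment at each gene's start site among all genes with a peak, in 10 conditions (columns) for the 8 genes (rows), with a dash where no peak lay within 1000 bases. Jun lies between 96.5 and 99.0 in all conditions, and Atf3 is at 48.3 in satellite cells and at 89.0 to 97.7 elsewhere.

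Histone mark peaks were given for iPax7 and C2C12 cells, and satellite cells were not analysed here for these marks. In +Dox and in -Dox cells all 8 genes had a peak of H3K4me3, the mark of active start sites, within 1000 bases (60.4% and 66.0% of genes), and all 8 had H3K4me1 (61.7% and 64.9%). H3K27Ac, a mark of active promoters and enhancers, was present at 7 of the 8 in both states (48.1% and 45.2% of genes), the exception being Atf3. H3K27me3, the mark laid by Polycomb complexes at silent genes, was present at Atf3 in both states, over 7214 bases within 5 kb on either side of its start site in +Dox cells and over 7015 bases in -Dox cells, with no peak over the start site itself. At Fosl1 there was H3K27me3 over 628 bases in +Dox cells only among these 2 states, and the remaining genes had no such peak within 1000 bases (21.8% and 19.9% of genes had one). Atf3 therefore carried H3K27me3 peaks and no H3K27Ac peak in -Dox cells, in which its RNA was 58.3 times that of +Dox cells. In C2C12 cells Atf3 had both H3K27Ac, over 2605 bases in the flag control and 3366 bases with Pax7-flag, and H3K27me3, over 7131 and 3392 bases. For Fos, H3K27Ac covered 4241 bases in +Dox and 2338 bases in -Dox cells, with the RNA at 397 and 383 normalized counts.

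Pax7 binding sites, called by the authors in +Dox cells, lay within 100 kb of 2 of the 8 genes, Junb and Jund, against 20.8% of genes. The nearest site was 1.24 kb from Junb, at chr8:87498740-87499571, with an ATAC-seq fold enrichment of 48.3 in +Dox, 41.3 in -Dox after 3 days and 5.27 in satellite cells. A site 23.9 kb from Jund had values of 89.0, 75.4 and 19.7. Fos, Fosb and Fosl2 had no site within 500 kb, and Atf3 had several between 271 and 396 kb. The site 291 kb away, named after its values were seen, had an ATAC-seq enrichment of 33.8 in +Dox cells and 8.98 in satellite cells. After Dox withdrawal it had 2.45 at 12 h and no peak at 24 h or 3 days. The sites 271, 375 and 396 kb away kept a peak at 3 days, at 6.01, 6.29 and 8.05. Their values in +Dox cells were 21, 26.1 and 15.3. The site 361 kb away went from 5.34 in +Dox cells to no peak at 3 days, and the site 394 kb away had no peak in any condition.

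The AP-1 motif TGANTCA was counted within 100 bases of each ATAC-seq peak summit. This sets the RNA levels beside candidate sites of Fos and Jun proteins. It was present at 22.9% of 90436 summits in satellite cells and at 22.8% of 135536 in +Dox cells. Mean Fos RNA in satellite cells was 679 times that in +Dox cells. A link between motif shares and RNA levels was not tested, and RNA does not measure the bound protein. After Dox withdrawal the share was 33.4% at 12 h, 32.3% at 24 h and 32.2% at 3 days, with Fos RNA at 3 days overlapping that of +Dox cells, Atf3 and Fosl2 higher and Fosl1 lower. It was 15.8% in iPax7 myotubes and 22.6% in C2C12 myotubes, and 34.3% in C2C12 myoblasts. The E-box CAGCTG, bound by myogenic factors, was searched as a control. It was at 19.7% in satellite cells, 20.0% in +Dox cells, 15.1% in -Dox cells at 3 days and 27.1% in myotubes of both lines. Muscle differentiation markers also differed between -Dox and +Dox cells, so this E-box is not a neutral control. Away from start sites, by over 1000 bases, the AP-1 share was 28.4% in satellite cells, 26.5% in +Dox cells and 37.1% in -Dox cells at 3 days.

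**Figure D4:**
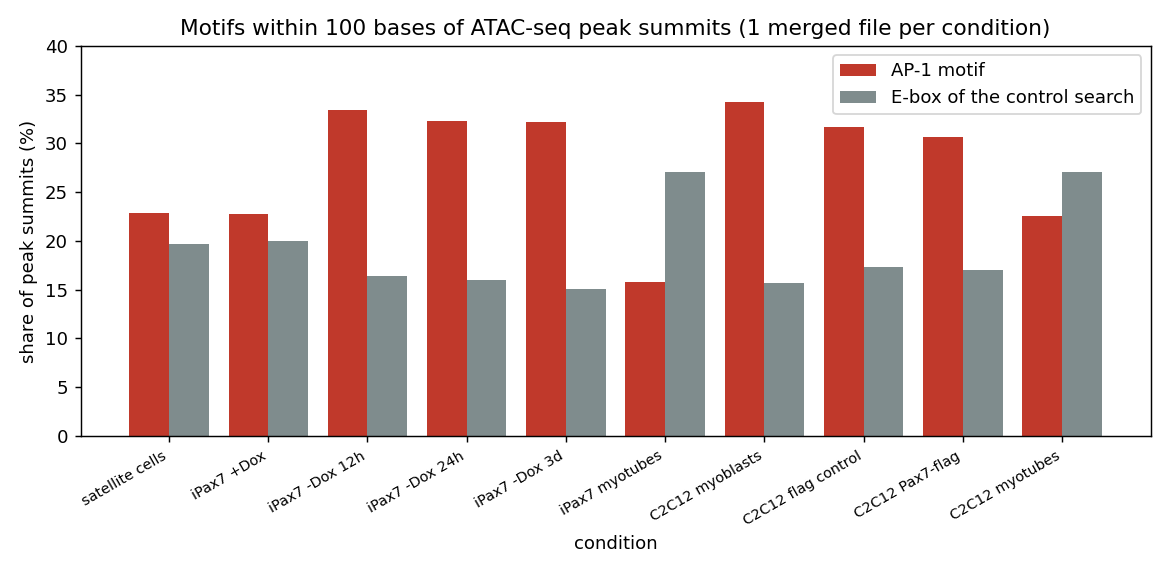
Share of ATAC-seq peak summits (%) with the AP-1 motif (red) or the control E-box (grey) within 100 bases, for 1 merged peak file in each of 10 conditions. The AP-1 share is 32.2% to 33.4% in iPax7 cells after Dox withdrawal, against 22.8% with Dox and 22.9% in satellite cells.

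Summits in peaks found in 1 state alone were also compared. Of 61956 summits in -Dox cells at 3 days without an overlapping +Dox peak, 41.0% had the AP-1 motif, whereas 11.8% of 29052 summits in +Dox cells without an overlapping -Dox peak had it. In summits of shared peaks the values were 27.3% for -Dox and 25.7% for +Dox cells. Between satellite and +Dox cells the corresponding values were closer, at 25.9% of 27620 summits without an overlapping +Dox peak and 25.0% of 74746 summits without an overlapping satellite cell peak. At the 2455 Pax7 sites the motif was present in 10.5%. Among them, it was in 12.8% of the 1670 sites that overlapped an ATAC-seq peak 3 days after Dox withdrawal and in 5.86% of the 785 that did not.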

How the data were processed

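RNA was measured in 8 libraries (3 +Dox, 2 -Dox, 3 satellite cells). The authors deposited HTSeq read counts per gene after TopHat2 alignment to mm9, as their processing notes name these tools (HTSeq 0.6, TopHat2 2.0). ATAC-seq peaks were deposited with MACS2 (2.0.10) fold enrichment (a ratio) and -log10 q-values. Histone and Pax7 peaks were deposited as positions. Replicates were merged in these peak files. Rows naming no gene were left out, of which no_feature held 0.002% to 0.00309% and ambiguous reads 1.51% to 2.32%. Counts were fitted in edgeR 4.0.16 (quasi-likelihood, TMM, filterByExpr, Benjamini-Hochberg over 14836 genes), and tested on simulated data. Standard errors were taken from the F statistic. With replicate origin unstated, p-values measure the spread between these libraries. Genes were named by a rule: the 8 genes, and per list and comparison at most 4 of those called with the largest change, with exceptions marked in the text. For likeness 1 was added before taking log2. Start sites, exons and sequences were from GENCODE vM1 and NCBIM37, the files' build. Limits from 0 counts cover counting error only. Alternatives were RLE, DESeq2 1.42.0, other filters, the compared groups alone, a replicate block and leaving out each library. The genes and the lists were chosen with earlier results of these data known. Some genes that the rule would name are not reported here.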

Additional observations from a re-analysis of the deposited data

How the results depend on the processing

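Of 336 alternative log2 fold changes of the 8 genes, 332 kept their direction. The 4 that changed sign were Fos and Fosb in -Dox against +Dox cells on leaving out a library, where the ranges were -0.38 to 0.29 and -1.14 to 1.21. Fos was 0.29 without +Dox replicate 2 and 0.23 without -Dox replicate 1, and Fosb was -0.33 without +Dox replicate 1 and -1.14 without -Dox replicate 1. Leaving out a library also moved others past or below a 2-fold difference in that comparison: Junb was -0.74 without +Dox replicate 3, Jund 1.27 without +Dox replicate 3 and Fosb 1.21 without +Dox replicate 2. Atf3 was 7.50 without +Dox replicate 2. No log2 fold change of a satellite cell comparison changed sign.

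For -Dox against +Dox, 1134 genes were called. DESeq2 called 2129, the 2 groups alone 1950, and a fit with the replicate number as a block 2608. List genes called were 11, against 20 with DESeq2 and 17 with the block. Leaving out a library gave 488 (without -Dox replicate 2) to 1374 genes (without satellite cell replicate 1) and 5 to 15 list genes. It gave 508 genes without -Dox replicate 1, 674 without +Dox replicate 1 and 630 without +Dox replicate 2. A group left with 1 library was assumed to vary like the others, and the cause of these differences was not tested. For satellite cells against -Dox the range was 3204 (without -Dox replicate 1) to 5821, with 3382 without -Dox replicate 2. Whether same-numbered libraries belonged together is not stated in the sources used here. Correlations of their deviations from the group means ranged from -0.0398 to 0.0272. These values cannot decide whether the libraries were paired.

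Counting only peaks over the start site itself, H3K27Ac in +Dox cells was at 4 genes. H3K27me3 was then at 0 in all 4 states, and H3K4me1 at 2 in -Dox cells, 2 in the C2C12 flag control and 3 with Pax7-flag. Within 5000 bases, H3K27me3 in -Dox cells was at 2. The H3K27me3 at Atf3 thus flanked its start site. For these histone counts the share over all genes was not computed. Pax7 sites were near 1 of the 8 genes within 10 kb (6.79% of all genes) and 5 of the 8 within 500 kb (57.9% of all genes).

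With the AP-1 motif within 50 bases of the summit, the share was 14.7% in satellite cells, 14.1% in +Dox cells, 22.3%, 21.4% and 21.5% at 12 h, 24 h and 3 days without Dox, 8.96% in iPax7 myotubes, 21.5% in C2C12 myoblasts, 19.2% in the flag control, 18.2% with Pax7-flag and 13.6% in C2C12 myotubes. In the strongest 20000 summits it was, in the same order, 25.1%, 20.8%, 38.3%, 34.3%, 38.7%, 14.1%, 37.7%, 33.1%, 32.7% and 22.3%. Depth of the peak files is unknown.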
